A study of Homo sapiens with 25 samples.

Results

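The acetylation of histone H3 at lysine 27 (H3K27ac) was compared between pharyngeal foregut endoderm (hPFE) and the human embryonic stem cells (hESC) from which it was made, using the peak lists of 4 of the 25 samples of the study, 2 libraries per stage. Overlapping peaks of a list were merged on chromosomes 1 to 22 and X. A protein-coding gene was called gained when a peak lay within 1 kb of either of its annotated ends in both hPFE libraries and in neither hESC library, and lost in the reverse case. The same rule was applied to distal regions, which are stretches of merged peaks lying over 2 kb from both ends of every annotated gene. Of 19974 protein-coding genes 1377 changed, of which 1051 were gained (11.5% of the 9176 genes with no hESC peak) and 326 were lost (3.8% of the 8584 genes with a peak in both hESC libraries). Of 181677 distal regions 18982 changed, of which 10477 were gained (5.77%) and 8505 were lost (4.68%). Which of the 2 distal counts was larger depended on the lists: with lists of equal length 7176 regions were gained and 8599 lost, and with an overlap of at least 200 bp 6362 were gained and 6435 lost.

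All cells were of the H1 line, an established line of human embryonic stem cells. hPFE cells are H1 cells taken by directed differentiation through definitive endoderm (hDE) and anterior foregut endoderm (hAFE), and hESC cells are undifferentiated H1 cells. The labels name no genetic change and no differentiation agent for either stage. Per the labels, the hESC libraries of H3K27ac and H3K27me3 were re-analysed from an earlier deposit and the hPFE libraries carry no such mark, so stage and batch cannot be told apart in any result below. The labels do not say whether the 2 libraries of a stage came from separate cultures. The tables hold peaks and no read counts, so the sequencing depth is unknown, and in a mixed culture fewer cells of a type and less of the mark per cell cannot be told apart.

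H3K27ac is placed by the acetyltransferases p300 and CBP on nucleosomes beside active promoters and enhancers. The same lysine can carry trimethylation (H3K27me3) set by Polycomb repressive complexes, so 1 histone tail bears either mark and not both, while H3K4me2 lies on promoters and enhancers that are open or active. Pharyngeal endoderm lines the embryonic throat, is patterned by retinoic acid, FGF, BMP and Hedgehog signals, and gives rise to the thymus, the parathyroids and the thyroid.

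The hPFE lists were the longer ones. They held 81170 peaks in hPFE replicate 1 and 111256 in hPFE replicate 2, against 75087 in hESC replicate 1 and 68306 in hESC replicate 2. The peaks covered 27.1 and 31.9 Mb in hPFE and 26.4 and 20.6 Mb in hESC, and marked 10940 and 11164 genes in hPFE and 9470 and 9912 genes in hESC. hPFE replicate 2 differed from the other 3 lists in having 0.962% of its merged peaks on the X chromosome, where the others had 1.68 to 2.01%, and a highest fold enrichment of 60.2, where the others had 15.3 to 24.3. The Jaccard index, the shared over the combined peak length, was 0.256 for the hPFE pair, 0.280 for the hESC pair and 0.130 to 0.160 between stages. The 2 pairs within a stage therefore shared more peak length than any of the 4 pairs across stages. The mean of 0.268 within stages against 0.145 between stages was the largest of the 3 ways to pair 4 libraries (one-sided exact permutation p = 0.333, the smallest that 2 libraries per stage allow), so the calls below are counts of agreeing libraries with no p-value.

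**Figure D1:**
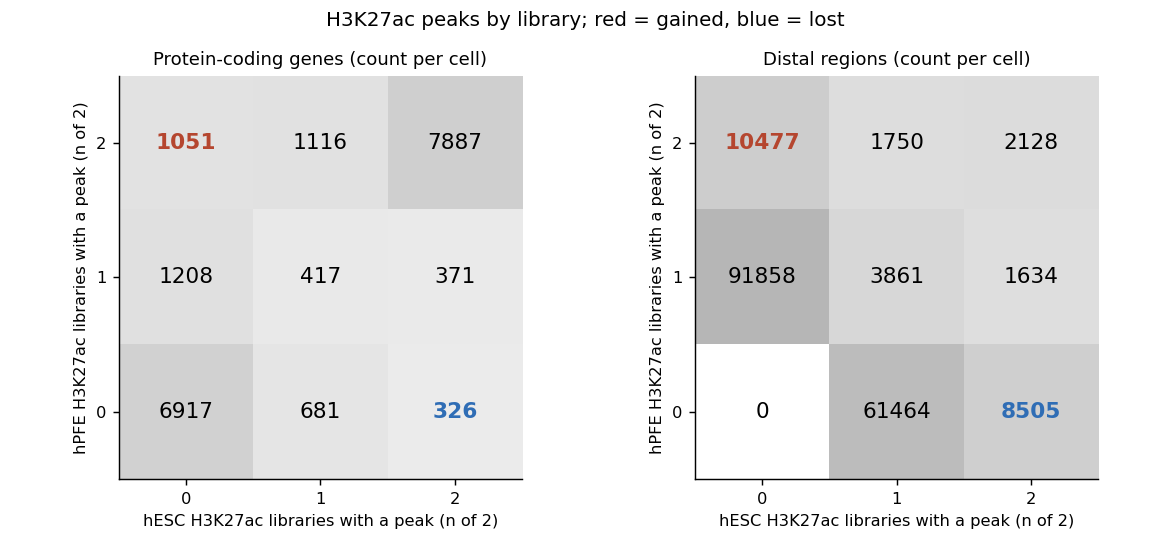
Number of protein-coding genes (left) and distal regions (right) by how many hPFE libraries (vertical axis, 0 to 2) and how many hESC libraries (horizontal axis, 0 to 2) had a peak. The 1051 gained and 326 lost genes are corner cells beside 7887 genes with a peak in all 4 libraries, while most distal regions had a peak in 1 library only.

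The middle cells of that plot show how far the calls rest on both libraries. Among genes with no hESC peak, 508 had a peak in hPFE replicate 1 only and 700 in hPFE replicate 2 only, beside the 1051 with both. Among genes with no hPFE peak, 276 had a peak in hESC replicate 1 only and 405 in hESC replicate 2 only, beside the 326 with both. Gains numbered 1751 when hPFE replicate 1 was left out and 1714 when hESC replicate 2 was, and losses numbered 493 to 731 when any 1 of the 4 libraries was. Distal regions agreed less between libraries: 91858 were found in 1 hPFE library alone and 61464 in 1 hESC library alone. The position of a gene's strongest peak in its own list, ranked by −log10 p, places the changed genes in the middle to upper range. The median percentile of gained genes was 70.8 in hPFE replicate 1 and 79.5 in hPFE replicate 2, and that of lost genes was 69.5 in hESC replicate 1 and 72.3 in hESC replicate 2. Genes kept at both stages stood higher, at median percentiles of 92.4 and 94.9 in hPFE and 90 and 90.1 in hESC. At the peak threshold the weakest gained genes were CRABP1, FRS3 and LEF1, whose weaker hPFE peak had a −log10 p of 2.03, and the weakest lost gene was ITLN2 with 2.25. Just outside the window, 30 genes missed a gain and 19 missed a loss because 1 library's peak lay 1 to 1.1 kb from the gene end. Where the RefSeq start was known, 703 of 833 gained genes (84.4%) and 167 of 239 lost genes (69.9%) had the peak at the start in both libraries, and 74 and 51 had it at the other end only.

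The label of the stages was checked against genes that define them. Of 52 regulators of pharyngeal and foregut endoderm, 42 had no hESC peak, and 20 of these (47.6%) were gained, against 11.5% of all genes. The most specific pharyngeal factors were less uniform. PAX9 and PAX1, paired-box factors of the pharyngeal pouches, had a peak in hPFE replicate 1 alone, with a deposited fold enrichment of 7.06 and 8.84, and none in hPFE replicate 2 or either hESC library. HOXA3, HOXB1, HOXB3 and RIPPLY3 showed the same pattern, with 8.67, 3.79, 4.54 and 4.16. TBX1 and HHEX, which also mark pharyngeal endoderm, had no peak in any of the 4 libraries. Of 41 pluripotency genes, 25 had a peak in both hESC libraries and 12 had none in either. POU5F1, NANOG and SOX2 were among the 25. NANOG and SOX2 also had peaks in both hPFE libraries, so only POU5F1 of these told the stages apart. Markers of other cell types stayed without the mark: all 31 neural genes that lacked a hESC peak had none in either hPFE library, and 0 of 31 liver, pancreas and intestine genes and 0 of 22 neural crest and mesenchyme genes were gained.

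The 20 gained pharyngeal and foregut regulators included, by descending rank, FOXA1, FOXP2, MEIS2, ISL1, MEIS1, FOXC1, NKX2-6, TBX3, CEBPA, HOXB2, FOXE1, SIX2, TSHZ1, NKX2-5, IRX5, MEIS3, HOXA2, FOXC2 and FOXA2. FOXA1, a pioneer factor that opens endodermal enhancers, had a fold enrichment of 9.37 and 8.83 in the hPFE libraries and no peak in the hESC libraries. Its start lies beside that of TTC6, with which it shared the peak (chr14:37595545-37596732 in hPFE replicate 1). FOXP2, a forkhead factor of foregut and lung epithelium, had 10.5 and 8.29 in hPFE and no hESC peak. MEIS2, a homeodomain partner of HOX and PBX proteins, had 16.5 and 7.41 in hPFE and no hESC peak, and the related MEIS1 had 11.1 and 5.78. For both MEIS genes the value was larger in hPFE replicate 1 than in replicate 2, and neither hESC library had a peak. ISL1, a LIM-homeodomain factor of pharyngeal endoderm and the adjoining heart field, had 7.15 and 5.8 in hPFE and no hESC peak. FOXC1, a forkhead factor of the pharyngeal region, had 7.87 and 5.14, and TBX3, a T-box repressor of the pharynx, had 5.23 and 4.1, both with no hESC peak. FOXA2, the endodermal pioneer factor named here outside the ranking rule, had 9.79 and 2.03 in hPFE and no hESC peak, with the strongest peaks of the 2 libraries at opposite ends of the gene. The 2 lost genes of the list were FOXA3, a forkhead factor of later gut and liver endoderm, with no hPFE peak and 3.11 and 5.33 in hESC, and IRX3, an Iroquois homeodomain factor, with no hPFE peak and 3.88 and 3.5 in hESC. The loss of IRX3 was not called with peaks of −log10 p of at least 5. The count of 20 gained regulators was 10 with the window at the transcription start only and 12 without genes that had another gene's end in the window.

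**Figure D2:**
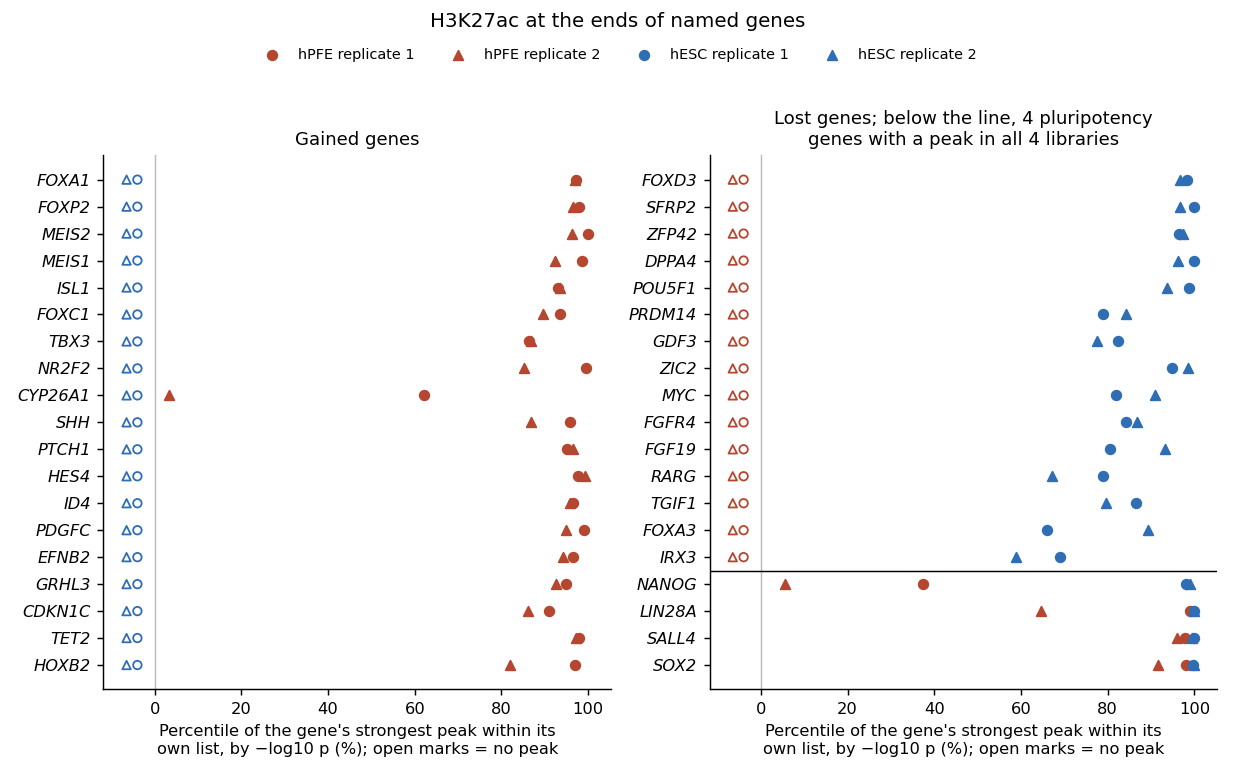
Percentile of the strongest H3K27ac peak at a gene's ends within its own library's list, by −log10 p, for 19 gained genes (left) and 15 lost and 4 kept genes (right), with 1 mark per library and open marks at the left where a library had no peak. FOXA1, FOXP2 and SHH stand at high percentiles in both hPFE libraries, CYP26A1 stands low in hPFE replicate 2, and NANOG is at percentiles 37.5 and 5.65 in hPFE and at 98.1 and 99.1 in hESC.

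A promoter of MEIS2 is shown because a peak covered its RefSeq start in both hPFE libraries and it is rich in CpG dinucleotides, of which it holds 35. This start lies within the gene, which the annotation begins further upstream. The stretch runs from 250 bases before to 50 bases after the RefSeq start on GRCh38.p14 (chr15:37099057-37099356, minus strand). Capitals mark 2 overlapping copies of the GC box (GGGCGG), a motif bound by SP1-type factors.
MEIS2: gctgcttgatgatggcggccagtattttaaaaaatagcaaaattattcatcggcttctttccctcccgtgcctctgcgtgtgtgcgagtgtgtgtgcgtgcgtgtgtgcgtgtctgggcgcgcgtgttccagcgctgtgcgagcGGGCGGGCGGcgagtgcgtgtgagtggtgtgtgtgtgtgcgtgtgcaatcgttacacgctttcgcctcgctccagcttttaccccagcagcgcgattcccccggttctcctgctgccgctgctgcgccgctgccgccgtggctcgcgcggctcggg

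Genes of the retinoic acid pathway, the signal that sets anterior to posterior identity in the foregut, were gained in 6 of 14 cases (42.9% against 11.5% of all genes). Apart from MEIS1, MEIS2 and TSHZ1, which are shared with the pharyngeal list, these were NR2F2, CYP26A1 and CRABP1. NR2F2, an orphan nuclear receptor induced by retinoic acid, had 12.2 and 3.93 in hPFE and no hESC peak. CYP26A1, the enzyme that degrades retinoic acid, had 3.88 and 2.03, and CRABP1, a carrier protein for it, had 3.82 and 1.96, again with no hESC peak. The CRABP1 peaks lay beyond the gene's 3′ end. The peaks of CYP26A1 and CRABP1 in hPFE replicate 2 were among the weakest of its list, and neither gene was called gained with peaks of −log10 p of at least 5. The receptor gene RARG was lost, with no hPFE peak and 4.28 and 3.68 in hESC. DHRS3, which reduces retinal, and the carrier CRABP2 kept their peaks, with 10.6 and 3.96 in hPFE against 6.93 and 5.52 in hESC for DHRS3 and 8.95 and 3.05 in hPFE against 4.91 and 5.9 in hESC for CRABP2. Fold enrichments are the authors' values per peak, and differences in them between libraries were not tested.

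All 39 HOX genes lacked a hESC peak, and 3 (7.69%) were gained, a share near the 11.5% of all genes at this list size. They included HOXB2 (8.9 and 3.97 in hPFE) and HOXA2 (9.36 and 2.71), which belong to the 3′ ends of their clusters, the part that is read first along the body axis. HOXA3, HOXB1 and HOXB3 had a peak in hPFE replicate 1 alone, and 33 HOX genes had none in either hPFE library. The call of HOXA2 ended with peaks of −log10 p of at least 5. HOX genes lie close together, and the calls of HOXB2 and HOXA2 ended when genes with another gene's end in the window were left out, so a peak cannot be assigned to 1 of several neighbours.

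Among ligands and receptors of the Hedgehog pathway SHH and PTCH1 were gained, 2 of the 10 that could be (20% against 11.5% of all genes). SHH, the ligand secreted by foregut endoderm, had 8.77 and 4.68 in hPFE and no hESC peak, and its peak in hPFE replicate 1 spanned the first part of the gene (chr7:155809977-155812532). PTCH1, the SHH receptor and a target of the pathway, had 8.28 and 7.98 in hPFE and no hESC peak, while 8 further genes of the pathway kept a peak in all 4 libraries and 8 had none in any. The promoter of SHH is shown because the ligand gene was covered at its start in both hPFE libraries and, unlike that of MEIS2, holds 7 CpG dinucleotides. Capitals mark a GC box and a GATA motif (AGATAA), both matched on the opposite strand, and a CCAAT box (chr7:155812414-155812713, minus strand, GRCh38.p14).
SHH: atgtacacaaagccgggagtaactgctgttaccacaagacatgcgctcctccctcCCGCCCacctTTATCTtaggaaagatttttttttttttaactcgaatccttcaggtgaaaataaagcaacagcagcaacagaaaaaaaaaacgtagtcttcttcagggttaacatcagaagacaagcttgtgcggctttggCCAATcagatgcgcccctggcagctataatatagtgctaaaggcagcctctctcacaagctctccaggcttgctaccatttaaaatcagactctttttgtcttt

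Notch pathway genes were gained in 4 of 16 cases (25% against 11.5% of all genes). HES4, a helix-loop-helix repressor and Notch target, had 10.2 and 17.1 in hPFE and no hESC peak, and MAML3, a co-activator of the Notch transcription complex, had 12.1 and 8.1. HEY1, a second target, had 6.29 and 5.62, and RFNG, a glycosyltransferase that modifies Notch receptors, had 4.33 and 3.43. The call of HEY1 ended with a window of 2500 bp, and that of RFNG with peaks of −log10 p of at least 5. Losses numbered 0 of 7, too few genes to set against the 3.8% of all genes.

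BMP and TGF-beta genes were gained in 9 of 25 cases (36% against 11.5% of all genes), comprising ligands, a matrix regulator, an antagonist, a receptor and a target. The target ID4, an inhibitor of helix-loop-helix factors, had 8.65 and 7.31 in hPFE and no hESC peak. All 3 TGF-beta ligand genes were gained, with 5.51 and 3.72 in hPFE for TGFB1, 3.92 and 3.55 for TGFB2 and 5.08 and 4.93 for TGFB3. LTBP1, which stores latent TGF-beta in the matrix, had 6.27 and 6 and the antagonist NOG had 6.69 and 3.72. The calls of TGFB1 and NOG ended with an overlap of at least 200 bp. The loss of 1 of 15 (6.67% against 3.8% of all genes) was TGIF1, a repressor of TGF-beta and retinoid responses, with no hPFE peak and 4.49 and 3.98 in hESC at the end opposite to its RefSeq start.

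FGF and receptor tyrosine kinase genes changed in both directions, with 6 of 25 gained (24.0%) and 3 of 23 lost (13.0% against 3.8% of all genes). PDGFC, a platelet-derived growth factor, had 11 and 6.23 in hPFE and no hESC peak, and the receptor gene FGFR3 had 5.9 and 2.86. In the other direction the receptor gene FGFR4 had no hPFE peak and 4.55 and 4.6 in hESC, and the ligand gene FGF19 had no hPFE peak and 3.63 and 5.95 in hESC. WNT genes were gained in 3 of 35 cases (8.57%), near the 11.5% of all genes, and lost in 3 of 19 (15.8% against 3.8%), namely SFRP2, SFRP1 and WNT3A. The calls of FGFR3 and WNT3A ended with peaks of −log10 p of at least 5, and that of FGFR3 also with lists of equal length.

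Among genes for cell contact, shape and epithelial identity, the gained shares were above the 11.5% of all genes. Guidance and adhesion receptor genes were gained in 8 of 23 cases (34.8%), keratin and cytoskeleton genes in 6 of 19 (31.6%), matrix and integrin genes in 6 of 22 (27.3%) and epithelial junction genes in 5 of 19 (26.3%), with losses in 0 of 14, 0 of 19, 0 of 24 and 0 of 27 cases. At the 3.8% lost among all genes, lists of this size hold too few genes for these zeros to be read. EFNB2, an ephrin ligand that marks tissue boundaries, had 8.74 and 6.56 in hPFE and no hESC peak. GRHL3, a grainyhead factor of surface epithelia, had 7.46 and 5.11, and ANXA2, a membrane-binding annexin, had 7.39 and 9.02, both with no hESC peak. KRT8, KRT18, CDH1 and EPCAM, general epithelial genes, had a peak in all 4 libraries.

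Growth control genes showed the highest share, with 6 gained of the 7 that lacked a hESC peak (85.7% against 11.5% of all genes), on a small base. CDKN1C, an inhibitor of cyclin-dependent kinases, had 7.09 and 4.57 in hPFE and no hESC peak. BTG2, an antiproliferative co-regulator, had 8.89 and 5.3, and CDKN2B and CDKN2A, kinase inhibitors that share a locus, had 3.45 and 5.65 and 2.76 and 3.04. The calls of both ended with peaks of −log10 p of at least 5, and that of CDKN2A also with lists of equal length. MYC, which drives growth and sustains stem cells, was the 1 gene of 26 that was lost (3.85%, near the 3.8% of all genes), with no hPFE peak and 4.57 and 5.55 in hESC. Its call ended with the window at the transcription start only. Immediate early genes were gained in 6 of 14 cases (42.9% against 11.5%). FOSB, a subunit of the AP-1 factor, had 6.3 and 19.7 in hPFE and no hESC peak, FOSL2 had 5.51 and 11.7 and MAFF had 3.94 and 14.6. For these 3 genes the value was larger in hPFE replicate 2, the reverse of the MEIS genes. Among chromatin regulators TET2, which oxidises methylated cytosine, had 9.25 and 9.04 in hPFE and no hESC peak, and CBX8, a Polycomb subunit, had 5.59 and 3.27.

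ANKRD1, an ankyrin-repeat protein gene and a known target of the YAP and TEAD factors, had 6.8 and 9.29 in hPFE and no hESC peak. Its promoter is shown as a CpG-poor example, with 5 CpG dinucleotides (chr10:90921038-90921337, minus strand, GRCh38.p14). Capitals mark 2 copies of the TEAD motif (GGAATG), an AP-1 motif (TGANTCA) and, on the opposite strand, a GATA motif.
ANKRD1: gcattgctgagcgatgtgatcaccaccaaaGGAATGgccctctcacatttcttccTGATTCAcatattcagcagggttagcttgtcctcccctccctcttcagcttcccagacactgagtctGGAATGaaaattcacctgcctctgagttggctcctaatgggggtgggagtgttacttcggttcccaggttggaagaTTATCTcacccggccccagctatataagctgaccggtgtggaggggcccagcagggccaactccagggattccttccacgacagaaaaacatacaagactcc
A match of these letters is a description and does not show that a factor was bound.

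Pluripotency genes lost the mark in 9 of the 25 cases in which both hESC libraries had it (36% against 3.8% of all genes). FOXD3, a forkhead factor that keeps stem cells undifferentiated, had no hPFE peak and 8.39 and 7.19 in hESC. POU5F1, which encodes the pluripotency factor OCT4, had no hPFE peak and 8.91 and 6.11 in hESC (chr6:31168436-31170598 in hESC replicate 1). ZFP42, the zinc finger marker REX1, had no hPFE peak and 7.43 and 7.35 in hESC. DPPA4, a chromatin protein of pluripotent cells, had no hPFE peak and 11.2 and 6.33 in hESC, and SFRP2, a secreted WNT modulator, had no hPFE peak and 11 and 6.91 in hESC. These 5 genes stood at percentiles of 93.6 to 99.9 in the hESC libraries. PRDM14, a repressor of differentiation genes, had no hPFE peak and 4.3 and 4.65 in hESC, and GDF3, a TGF-beta ligand, had none and 3.92 and 4.2. DPPA3 was the weakest, with no hPFE peak and 2.85 and 3.73 in hESC. ZIC2, listed as neural but used in stem cells as well, had no hPFE peak and 6.63 and 8.05 in hESC. With a window of 500 bp the count of 9 lost pluripotency genes was 14. POU5F1 and PRDM14 were not called lost with the window at the transcription start only. POU5F1 and FOXD3 dropped out when genes with another gene's end in the window were left out.

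Other pluripotency genes kept a peak in all 4 libraries. NANOG, the homeodomain factor of the pluripotent state, had 3.21 and 1.99 in hPFE and 8.4 and 8.75 in hESC, and its hPFE peaks lay low in their lists, at percentiles of 37.5 and 5.65. LIN28A, an RNA-binding protein that blocks let-7 maturation, had 9.55 and 3.24 in hPFE and 15.2 and 10.4 in hESC. SALL4, a zinc finger factor, had 9.52 and 6.68 in hPFE and 10.8 and 9.01 in hESC. SOX2, which is used in stem cells and again in the foregut, had 7.45 and 3.95 in hPFE and 10.7 and 10.4 in hESC. The 1 gained gene of the list, KLF5, is a zinc finger factor shared with epithelia and had 3.28 and 4.27 in hPFE, a call that ended with peaks of −log10 p of at least 5.

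**Figure D3:**
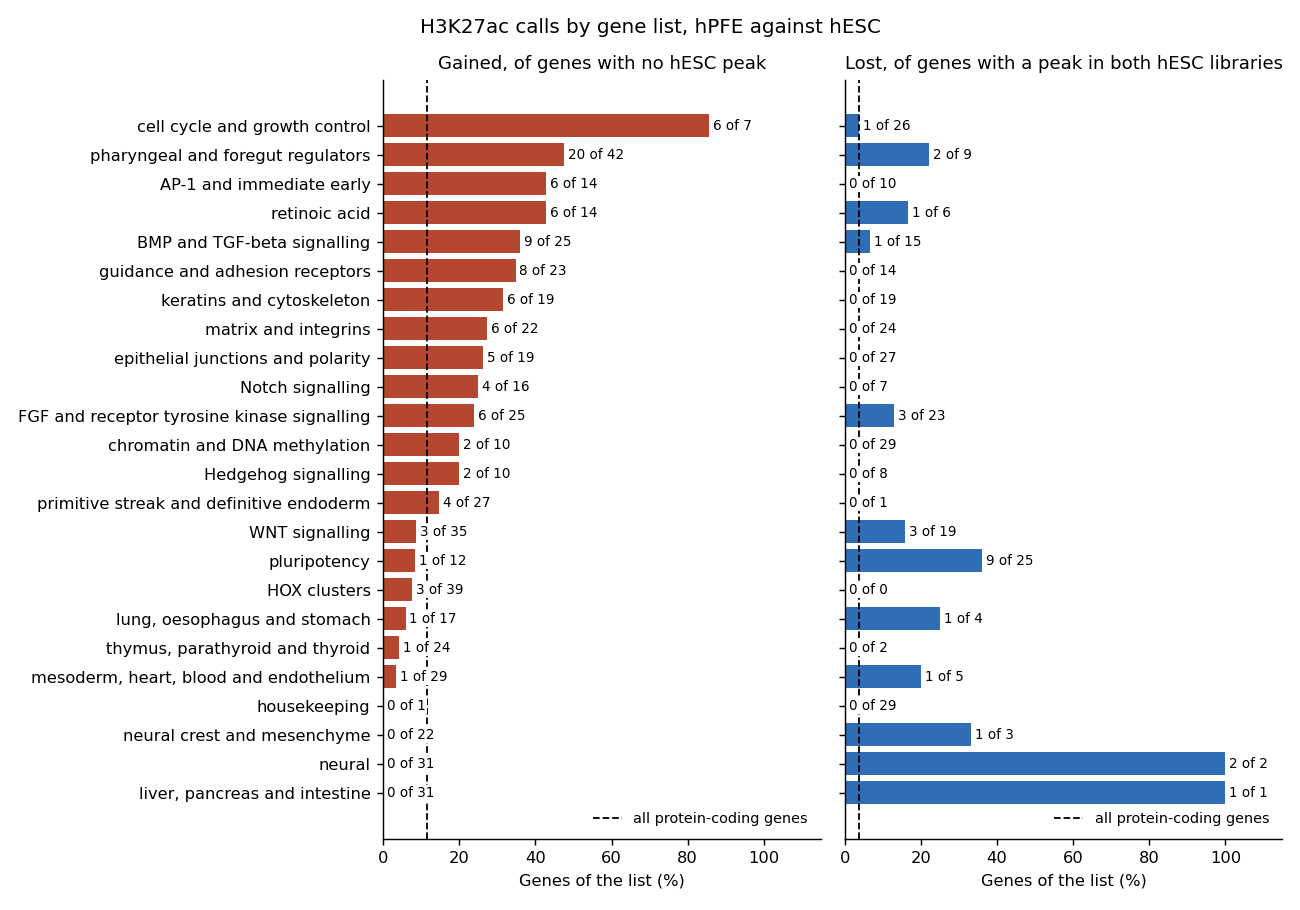
Share of each gene list that was gained, of its members with no hESC peak (left), and lost, of its members with a peak in both hESC libraries (right), in percent, with the counts beside the bars and a dashed line at the share of all protein-coding genes (11.5% and 3.8%). Growth control, pharyngeal, immediate early and retinoic acid genes lie farthest to the right among gains, and pluripotency is the longest loss bar among lists with more than 5 genes that could be lost.

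Outside the lists, the highest ranked gained genes were MPZL2, a cell adhesion molecule of epithelia, with 14.7 and 17.6 in hPFE and no hESC peak, and ZNF436, a zinc finger gene, with 17.2 and 13.1. RND3, an atypical small GTPase, had 10.9 and 9.13, and PRTG, a neogenin-related receptor, had 10.5 and 8. The highest ranked lost genes were ACSM6, an acyl-CoA synthetase gene, with no hPFE peak and 10.2 and 10.7 in hESC, and CYP2S1, a cytochrome P450 gene, with none and 7.86 and 7.52. FOXH1, the factor that carries Nodal signals to DNA, had none and 6.57 and 8.94 at a call that ended with a window of 2500 bp, and PIPOX, a pipecolate oxidase gene, had none and 8.03 and 6.35. TRIML2, a tripartite-motif gene that lies near ZFP42 on chromosome 4, had none and 7.22 and 5.06.

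Promoters of 3 of these lost genes are shown because their starts were covered by a peak in both hESC libraries. CYP2S1 (chr19:41192969-41193268, plus strand) has 3 GC boxes, a GATA motif and a nuclear receptor half-site motif (AGGTCA), PIPOX (chr17:29042891-29043190, plus strand) has the octamer ATGCAAAT that POU factors bind, and TRIML2 (chr4:188109554-188109853, minus strand) has a nuclear receptor, a GC, a GATA, an AP-1 and a TEAD motif, the last pair overlapping. Capitals mark these matches on either strand, and all are RefSeq sequences of GRCh38.p14.
CYP2S1: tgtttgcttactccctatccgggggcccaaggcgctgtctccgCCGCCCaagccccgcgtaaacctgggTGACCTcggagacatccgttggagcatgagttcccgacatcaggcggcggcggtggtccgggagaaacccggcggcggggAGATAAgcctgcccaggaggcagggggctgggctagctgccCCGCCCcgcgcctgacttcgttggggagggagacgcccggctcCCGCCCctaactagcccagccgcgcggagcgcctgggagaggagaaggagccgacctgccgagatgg
PIPOX: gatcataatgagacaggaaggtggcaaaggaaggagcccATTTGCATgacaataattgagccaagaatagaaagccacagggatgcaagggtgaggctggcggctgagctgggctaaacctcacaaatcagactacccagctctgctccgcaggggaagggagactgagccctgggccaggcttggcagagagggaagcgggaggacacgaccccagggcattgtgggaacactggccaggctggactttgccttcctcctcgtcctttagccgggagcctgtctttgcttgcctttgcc
TRIML2: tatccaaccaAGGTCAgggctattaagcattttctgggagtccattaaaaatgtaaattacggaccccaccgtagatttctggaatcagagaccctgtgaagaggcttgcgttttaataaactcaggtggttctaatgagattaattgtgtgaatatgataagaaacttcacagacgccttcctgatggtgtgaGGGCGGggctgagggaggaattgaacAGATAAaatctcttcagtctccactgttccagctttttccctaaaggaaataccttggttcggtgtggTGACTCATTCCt

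RefSeq promoters were matched for 833 of the 1051 gained, 239 of the 326 lost and 15812 of all 19974 genes. The CpG ratio, the observed over the expected number of CpG dinucleotides, had a median of 0.805 in gained, 0.636 in lost, 0.863 in kept and 0.372 in unmarked genes, against 0.763 in all. Promoters with a ratio under 0.4 were gained in 153 of the 3152 cases that could gain (4.85%) and lost in 68 of 478 (14.2%). Those with a higher ratio were gained in 680 of 3734 cases (18.2%) and lost in 171 of 6719 (2.55%), so gains were more frequent among CpG-rich and losses among CpG-poor promoters. The GC box stood in 66.5% of gained and 66.5% of lost promoters, against 58.5% of all. The octamer was found in 1.32% of gained and 2.93% of lost promoters, against 1.7% of all, and the lost share rests on 7 promoters. The GATA motif was found in 6.6% of gained and 10.5% of lost promoters against 7.55% of all, the motif TGACAG of MEIS factors in 14% and 7.53% against 14.7%, the TEAD motif in 11.6% and 11.7% against 11.7%, and the AP-1 motif in 5.04% and 4.18% against 5.76%. Motifs were searched on both strands.

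The marks that the calls did not use were then read at the same genes. H3K4me2 was already present in hESC at most genes that later gained H3K27ac. Of gained genes, 93.3% had an H3K4me2 peak in the hPFE library, and 88.2% and 88.7% had one in the hESC libraries, against 70.3% of all genes in hPFE and 74.1% and 74.6% in hESC. Lost genes had it in 72.1% of cases in hPFE (95% exact Clopper-Pearson interval 66.9 to 76.9%) and 92.6% and 93.3% in hESC. The share in hPFE was lower for lost than for gained genes (interval 91.7 to 94.8%), and hPFE H3K4me2 rests on 1 library.

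The share of genes with H3K27me3 moved opposite to H3K27ac, but many changed genes had no H3K27me3 peak at either stage. Gained genes without it numbered 422 with H3K4me2 in hPFE (40.2%) and 58 with no H3K4me2 there (5.52%). Lost genes without it numbered 78 (23.9%) and 60 (18.4%) in the same order. At gained genes H3K27me3 was found in 10.9% and 11.4% of cases in hPFE, against 39.8% (36.8 to 42.8%) and 50% (46.9 to 53%) in hESC. At lost genes it was found in 42% (36.6 to 47.6%) and 50.3% (44.7 to 55.9%) of cases in hPFE, against 20.6% and 28.5% in hESC. Over all genes the shares were 16% and 18.1% in hPFE and 20.2% and 26.1% in hESC. Intervals cover counting error only, and genes that share a peak are not independent. The lists of H3K27me3 replicate 1 of both stages carry the word millipore in their names, and whether this means a different antibody is not stated.

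**Figure D4:**
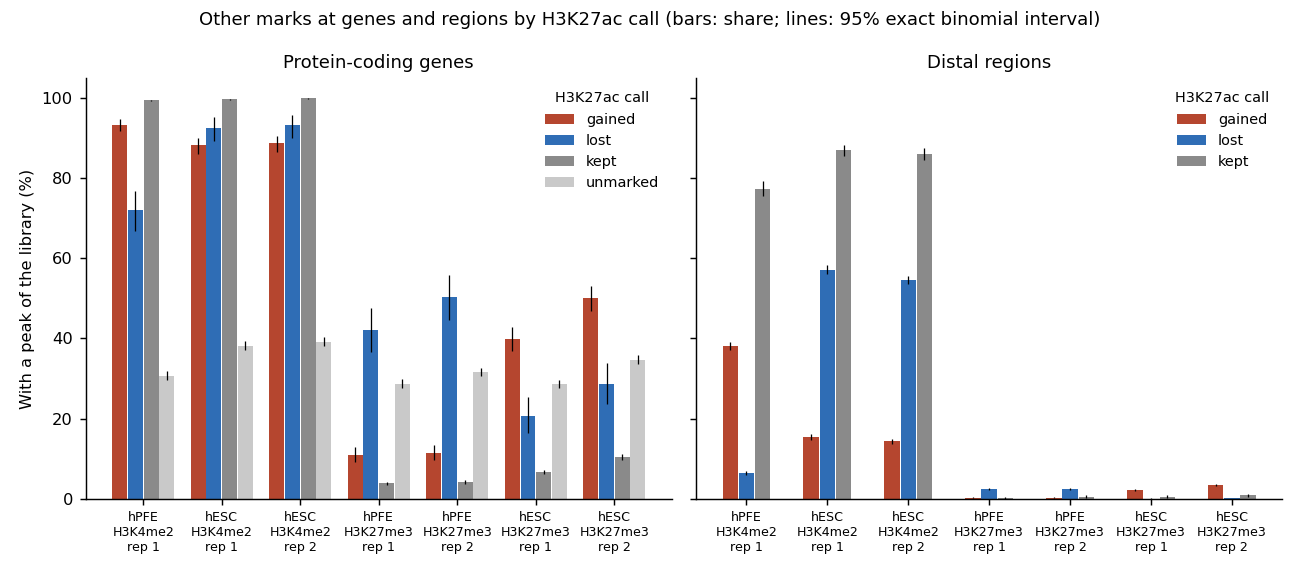
Share of protein-coding genes (left) and distal regions (right) with an H3K4me2 or H3K27me3 peak, in percent per library, by H3K27ac call. Bars are shares, lines are 95% exact binomial intervals, and at genes the H3K27me3 bars of gained genes are short in hPFE and tall in hESC while those of lost genes are tall in hPFE and shorter in hESC.

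Taking both libraries together, 405 gained genes (38.5%) had H3K27me3 in both hESC libraries, and 285 of these (70.4%) had none in hPFE, against 67.8% of kept, 11.7% of unmarked and 32.3% of all genes with the mark in hESC. The share was close to that of genes that kept H3K27ac. These genes included FOXA1, FOXP2, MEIS1, MEIS2, ISL1, FOXC1, SHH, PTCH1, NR2F2, HES4, HEY1, CDKN1C, TET2, HOXA2 and HOXB2, among 42 listed genes. A further 19 listed genes, with TBX3, FOXA2, NOG, CYP26A1, SIX2, NKX2-5, CDKN2A and CDKN2B among them, had H3K27me3 in both libraries of both stages together with the gained H3K27ac. The files cannot tell whether those marks lie on the same cells. ID4, EFNB2, PDGFC, LTBP1, SEMA3C and KLF5 were among 16 listed gained genes with no H3K27me3 in either hESC library.

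How often a gene was gained differed with its hESC state. Of 1022 genes with H3K4me2 alone 381 were gained (37.3%), and of 2649 with H3K4me2 and H3K27me3, the bivalent state, 402 were (15.2%). Of 4159 genes with neither mark 100 were gained (2.4%), and of 75 with H3K27me3 alone 2 were (2.67%). Among genes with H3K27ac in both hESC libraries, the share lost differed with the hESC state too. Lost were 204 of 7436 with H3K4me2 alone (2.74%), 64 of 556 with both marks (11.5%) and 18 of 25 with neither (72%). By the hPFE state, 88 of 7689 genes with H3K4me2 alone (1.14%) and 111 of 279 with both marks (39.8%) were lost. So were 15 of 16 with H3K27me3 alone and 63 of 130 with neither mark (48.5%). A lost gene lacks H3K27ac in hPFE by definition, so the hPFE split is no counterpart to that of the gains. Of 231 lost genes free of H3K27me3 in hESC, 58 (25.1%) had it in both hPFE libraries, against 1.56% of all such genes.

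The lost stem cell genes took different courses. PRDM14, SFRP2 and ZIC2 had H3K27me3 in both hPFE libraries and in neither hESC library. POU5F1, ZFP42, DPPA4, GDF3 and TGIF1 had no H3K27me3 at either stage and no H3K4me2 in hPFE, a state found at 60 of the 326 lost genes (18.4%). MYC, RARG and DPPA3 had no H3K27me3 but retained H3K4me2 in hPFE. FOXD3, IRX3, SFRP1, WNT3A, FLT1, FEZF1 and HNF4G had H3K27me3 in both libraries of both stages.

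H3K27ac in the stages between, which the calls did not use, was read at the same genes. A peak missing from a shorter list does not date a gain or a loss. Of gained genes, 66.1% and 69.6% had a peak in the hDE libraries and 60.6% and 21.7% in the hAFE libraries, against 56.2% and 58.6% of all genes in hDE and 50.2% and 34.7% in hAFE. Of lost genes, 43.9% and 52.5% had a peak in hDE and 14.4% and 3.37% in hAFE. The mark was present in both hDE libraries at 636 gained genes (60.5%) and 126 lost genes (38.7%), and in both hAFE libraries at 216 (20.6%) and 7 (2.15%). The hAFE lists are shorter, with 42100 and 24871 peaks against 101186 and 111076 in hDE, and their shares over all genes are lower too.

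**Figure D5:**
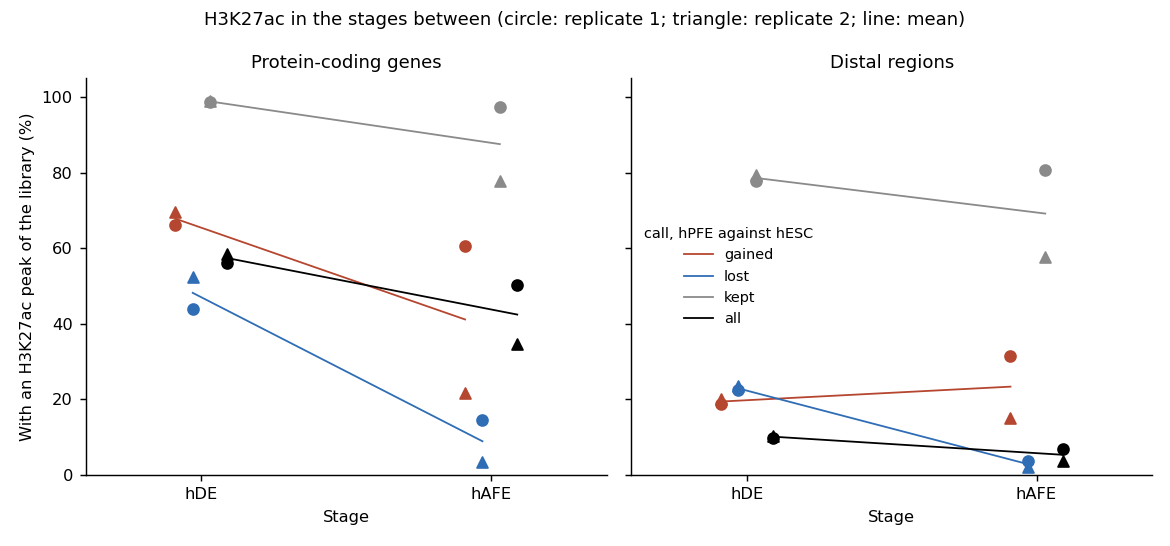
Share of protein-coding genes (left) and distal regions (right) with an H3K27ac peak in hDE and hAFE, in percent per library (circle replicate 1, triangle replicate 2, line the mean of both), by call between hPFE and hESC. Lost genes and regions drop to low shares in hAFE, and the 2 hAFE libraries lie far apart for gained genes (60.6% and 21.7%).

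Of 91 gained genes in the lists, 22 had a peak in all 4 libraries of hDE and hAFE, with FOXA1, FOXA2, FOXC1, MEIS1, MEIS2, NR2F2, TBX3, CYP26A1, MAML3, BTG2 and ANKRD1 among them. ISL1, PTCH1, ID4, EFNB2, TGFB2 and ITGB6 had none in hDE and a peak in both hAFE libraries. Another 19, including FOXE1, NOG, HOXA2, GRHL3, SIX2, MEIS3, SLIT2, SEMA3C, KLF5 and CDKN2A, had no peak at either stage, so their peaks were called in hPFE alone. Of 23 lost genes in the lists, 12 still had a peak in both hDE libraries, and 22 had none in hAFE. POU5F1, FOXD3, SFRP2, RARG, WNT3A, FLT1 and FEZF1 had none at either stage, and IRX3 had one in all 4 libraries of hDE and hAFE.

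Distal regions changed in larger numbers than genes. Each region is merged from the peaks of all 4 lists, so a region found in more libraries tends to be wider by construction. The widths below are therefore not a trait of changed regions. Gained regions had a median width of 446 bp, lost regions 483 bp and the 2128 regions found in all 4 libraries 968 bp. Their median distance to the nearest end of a protein-coding gene was 42995 bp for gained, 45870 bp for lost and 20141 bp for kept regions, and 56.1%, 51.6% and 65.1% lay inside that gene. H3K4me2 was found at 38.2% of gained regions in hPFE and at 15.4% and 14.3% in hESC, and at 6.3% of lost regions in hPFE and 57.1% and 54.5% in hESC. Over all distal regions it was found at 8.93% in hPFE and 13.4% and 12.2% in hESC. Gained distal regions thus had H3K4me2 in hESC at a little above the share of all regions, which include lost and kept ones. Regions that were neither gained, lost nor kept had it at 10% and 8.86% in hESC. H3K27me3 was found at 0.22% and 0.277% of gained regions in hPFE and 2.09% and 3.4% in hESC, and at 2.43% and 2.39% of lost regions in hPFE and 0.0235% and 0.165% in hESC. Over all distal regions it was found at 0.789% and 0.902% in hPFE and 0.546% and 1.02% in hESC, so this rare mark was above the share of all regions at gained ones in hESC and at lost ones in hPFE.

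Gained regions had an H3K27ac peak in 18.7% and 20.1% of cases in hDE and in 31.6% and 15.1% in hAFE, and 5822 (55.6%) had none at either stage. Lost regions had one in 22.4% and 23.4% of cases in hDE and in 3.69% and 1.96% in hAFE, and 6011 (70.7%) had none at either stage. The shares over all distal regions were 9.8% and 10.4% in hDE and 6.95% and 3.65% in hAFE.

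Gained regions lay near gained genes, and lost regions near lost genes, more often than near all genes. Of gained genes 373 (35.5%) were the nearest coding gene of at least 1 gained region, against 20.4% of all genes, 21.6% of kept, 18.4% of lost and 14% of unmarked genes. Of lost genes 114 (35%) were nearest to a lost region, against 16.5% of all and 16.7% of gained genes. The shares per gene do not allow for how many distal regions each gene is nearest to. Most changed regions nevertheless had another kind of nearest gene. Of gained regions 13.2% had a gained one and 43% a kept one, against 8.5% and 43.1% of all distal regions. Of lost regions 6.26% had a lost one and 44% a kept one, against 2.62% and 43.1% of all distal regions. The kept shares were thus those of all regions. Regions whose nearest gene is a pluripotency gene were lost in 130 of 936 cases (13.9% against 4.68% of all), and regions nearest to pharyngeal and foregut regulators were gained in 165 of 1567 (10.5% against 5.77%). For keratin and cytoskeleton genes the gained share was 14.2%, for Notch genes 14.1% and for retinoic acid genes 12%. Most lists lay above 5.77%, so the gained share was not particular to the pharyngeal list. It was 10.9% for primitive streak and definitive endoderm genes, 10.3% for lung, oesophagus and stomach genes and 8.33% for housekeeping genes. Neural genes, at 3.86%, were among those below.

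Among named genes, NR2F2 was nearest to 20 gained regions, MAML3 to 17, SEMA3C to 16, EFNB2 to 13, ISL1 to 10 and PAX9, whose own ends had a peak in hPFE replicate 1 alone, to 11. SOX2, kept at its ends, was nearest to 18 gained and 7 lost regions. DPPA4 was nearest to 12 lost regions, and PRDM14 to 6. These counts were not set against all distal regions nearest to each gene. They therefore show no excess over the 5.77% gained and 4.68% lost among all regions. The genes nearest to most gained regions were RAD51B, a DNA repair gene, with 42 of 228 and 8 lost, and PDGFC with 38 of 147 and 0 lost. ZNF608 had 34 of 295 and 11 lost, and CADM1, a cell adhesion gene, had 32 of 138 and 1 lost. IGF1R, the receptor of insulin-like growth factor 1, had 28 of 139 and 1 lost. For losses they included LOC124903233 with 42 of 213 and 0 gained, and MYC with 33 of 132 against 2 gained. CLYBL had 28 of 87 and 0 gained, and ANK2, an ankyrin gene, had 26 of 135 against 1 gained. The lost regions nearest to MYC lay 59.8 to 571 kb away, and 16 of the 33 had a peak in both hDE libraries and 0 in both hAFE libraries. The nearest gene is a matter of distance and does not show which gene a region acts on.

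The highest ranked gained region lay inside TP63 (chr3:189765704-189767453), the gene of the master factor of stratified epithelia, 130 kb from its nearest end, with 12.3 and 13.7 in hPFE and no hESC peak. It had a peak in both hAFE and in neither hDE library. TP63 had no peak at its ends in any of the 4 libraries and was nearest to 12 gained regions and 1 lost region. A region near ERRFI1, a feedback inhibitor of the EGF receptor, had 8.89 and 9.48 in hPFE (chr1:8070497-8072143), and it too was marked in both hAFE and in neither hDE library. A region inside WBP1L had 13.5 and 9.45 (chr10:102776212-102778315) and 1 inside PTPRJ, a receptor phosphatase gene, had 11.1 and 8.42 (chr11:48017467-48021023), and both had a peak in all 4 libraries of hDE and hAFE.

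The highest ranked lost region lay near QPRT, a gene of NAD synthesis, with no hPFE peak and 11.3 and 11.1 in hESC (chr16:29709181-29711284). A lost region inside VRTN, a gene of the pluripotency list that kept its own peaks, had none in hPFE and 9.25 and 10.7 in hESC (chr14:74347331-74350380). A lost region 410 kb from RORB, a nuclear receptor gene, had none and 11.6 and 9.69 (chr9:74086000-74086946), and a lost region 597 kb from LOC124903233 had none and 10 and 10.5 (chr13:55584039-55585214). These last regions had no peak in hDE or hAFE, whereas those near QPRT and inside VRTN had a peak in both hDE libraries and none in hAFE. All 10 of the highest ranked lost regions had H3K4me2 in both hESC libraries.

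Of 1911 microRNA genes 44 were gained (2.3%) and 21 lost (1.1%), against 5.26% and 1.63% of all protein-coding genes, and those described here were chosen after their values were seen. MicroRNAs are short RNAs that repress messages matching their seed, bases 2 to 8. The clearest loss was the cluster of MIR302A, MIR302B, MIR302C, MIR302D and MIR367 on chromosome 4 (minus strand), a hallmark of human embryonic stem cells. All 5 genes shared 1 peak with no hPFE counterpart and 9.5 and 10.9 in hESC (chr4:112646580-112648708 in hESC replicate 1), and had H3K4me2 in both hESC libraries and not in hPFE. The mature 3p sequences are printed from RefSeq with the seed in capitals, and show that the 4 members of the miR-302 family share it while miR-367 does not.
miR-302a-3p: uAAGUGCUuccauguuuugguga
miR-302b-3p: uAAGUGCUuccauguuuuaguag
miR-302c-3p: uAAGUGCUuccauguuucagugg
miR-302d-3p: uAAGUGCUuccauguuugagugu
miR-367-3p: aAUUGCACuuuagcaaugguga
MIR106A and MIR18B on the X chromosome were lost as a pair with no hPFE peak and 4.2 and 2.61 in hESC, from adjoining peaks that did not overlap. The seed of miR-106a-5p overlaps that of miR-302 in its letters AAGUGC.
miR-106a-5p: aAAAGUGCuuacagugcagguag

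Gained microRNA genes included the cluster of MIR99B, MIRLET7E and MIR125A on chromosome 19 (plus strand) and MIR125B1 on chromosome 11 (minus strand), none of which had a hESC peak. MIR99B had 5.59 and 3.72 in hPFE, MIRLET7E 3.94 and 3.72 and MIR125A 3.54 and 3.72, where hPFE replicate 2 had 1 shared peak (chr19:51692599-51692944). MIR125B1 had 7.29 and 4.23 in hPFE. At MIR99B, MIRLET7E and MIR125B1 the strongest peaks of the 2 hPFE libraries did not overlap, whereas at MIR125A they did. The let-7 family accumulates as stem cells differentiate and is held back by LIN28A, whose gene kept the mark. The mature 5p sequences show that miR-125a and miR-125b, made from genes on different chromosomes that were both gained, have the same seed.
miR-125a-5p: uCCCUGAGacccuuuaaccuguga
miR-125b-5p: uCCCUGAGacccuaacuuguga
miR-99b-5p: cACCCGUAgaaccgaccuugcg
let-7e-5p: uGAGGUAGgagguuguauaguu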

How the data were processed

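ChIP-seq peak lists of H1 cells were used: H3K27ac, H3K4me2 and H3K27me3 in hESC and hPFE, and H3K27ac in hDE and hAFE. Each deposited list gives, per peak, the authors' fold enrichment, −log10 p and −log10 q. Per the deposited file names, peaks were called for each library against the stage's input at a p threshold of 0.01, with a cap of 500 K peaks. The build was hg38, per the submitters' processing notes, and the aligner and caller were not stated. Gene ends, names and sequences came from RefSeq tables of GRCh38.p14. Peaks were merged within each list and counted as present with an overlap of at least 1 bp. Neighbouring genes can share a peak. No read counts were given, so depth is unknown, and intervals (95%, exact Clopper-Pearson) cover counting error only. The calls were tested on simulated peaks.

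The members and 24 gene lists (861 genes, 859 measured) were chosen with earlier results of these data known. Genes named were at most 8 per list and direction, by the lower of the 2 libraries' percentiles, 12 of each direction outside the lists, 5 long non-coding RNA genes of each direction, 10 distal regions of each direction and the 10 genes nearest to most changed regions. Other list genes named, such as PAX9, FOXA2 and KLF5, were chosen after their values were seen. Alternatives were stricter peaks, equal list lengths, other windows and overlaps, and leaving out each library. Python 3.11.15, numpy 2.4.6, pandas 2.3.3, scipy 1.17.1 and matplotlib 3.10.9 were used. Results of some genes are not reported here.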

Additional observations from a re-analysis of the deposited data

How the results depend on the processing

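With peaks of −log10 p of at least 5, distal gains numbered 4247 and losses 3259, and with −log10 q of at least 2 they numbered 4881 and 3813. With an overlap of at least 200 bp distal gains numbered 6362 and losses 6435, and with lists of equal length 7176 and 8599, so that losses outnumbered gains. Genes lost numbered 209 with the window at the transcription start only. Without genes that have another gene's end in the window, 617 were gained and 200 lost. Leaving out 1 library gave 1504 to 1751 genes gained, 493 to 731 genes lost, 11205 to 72153 distal regions gained and 9275 to 43779 lost, by construction, since 1 library of that stage then decides.

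For gained genes with H3K27me3 in both hESC libraries the share was 28.8% with −log10 p of at least 5, 31.2% with −log10 q of at least 2, 29.3% with the stricter −log10 p limit on the H3K27me3 lists and 32.2 to 39.1% without 1 library. For lost genes with H3K27me3 in both hPFE libraries these shares were 28.6%, 29.6%, 28.8% and 26.6 to 32.1%, and for gained genes with H3K4me2 in both hESC libraries 93.7%, 92.1%, 83% and 75.2 to 90.9%. For gained genes with H3K27ac in both hDE libraries they were 81%, 77.9%, 42.8% and 45.7 to 69.4%, and 64.1% with equal list lengths. For lost genes in both hDE libraries they were 62.9%, 58.9%, 28.8% and 26.4 to 53.4%, and for gained genes in both hAFE libraries 33.2%, 31.7%, 10.3% and 13.3 to 24.5%. The cause was not tested.

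Whether calls reverse could not be tested by most of these alternatives. Stricter peaks, equal list lengths, a larger overlap, the smaller window and leaving out a library only remove peaks. The wider window only adds them. None of these can turn a gain into a loss or a loss into a gain, so they show only whether a call was kept. Of 95 named gained genes 25, and of 34 named lost genes 9, kept their call in all 12 alternatives. Pharyngeal regulators gained numbered 29 without hPFE replicate 2 and 22 without hPFE replicate 1, and 10 with the window at the transcription start only. No paired analysis was possible because the calls come from no test. Stage and batch cannot be told apart, and read depth is unknown.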

Other observations

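Of 18177 long non-coding RNA genes 754 were gained (4.15%) and 364 lost (2%), against 5.26% and 1.63% of all protein-coding genes. ITGB8-AS1, antisense to an integrin gene, had a fold enrichment of 10.2 and 19 in hPFE and no hESC peak, and LOC124904886 had 15.4 and 9.43 in hPFE and no hESC peak. PSORS1C3, which lies beside POU5F1, had no hPFE peak and 8.34 and 8.74 in hESC. LINC00678 had no hPFE peak and 7.33 and 10.8 in hESC. Peak lists carry no strand, so the mark at an antisense gene and at its partner cannot be told apart.

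Of 17 lung, oesophagus and stomach genes with no hESC peak 1 was gained, IRX5, an Iroquois homeodomain factor, with 3.58 and 3.75 in hPFE. Of 30 housekeeping genes 29 had a peak in all 4 libraries. EOMES and SOX17, factors of definitive endoderm, had no peak in either hPFE or hESC library and a peak in both hDE libraries.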
